A study of Mus musculus with 3 samples.

Results

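The genes described here are 10 stress-responsive genes of thymic invariant natural killer T (iNKT) cell preparations. They are the AP-1 subunits Fos, Fosb, Jun, Junb and Jund and the feedback regulators Dusp1 and Zfp36. The immediate-early gene Ier2 and the heat shock genes Hspa1a and Hspa1b complete the list. The 10 genes were taken as a named list and matched by symbol. All 10 were found among the 30406 gene identifiers that the 3 libraries have in common. The study used droplet single-cell RNA-seq to profile iNKT cells of the mouse thymus with and without haploidentical bone marrow transplantation (BMT). Cells were depleted of CD8+ cells with microbeads and sorted as TCRβ+ cells that bound the CD1d tetramer and lacked CD24 and NK1.1, and the thymi of several mice were pooled into each library.

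The C57BL/6 library came from C57BL/6 mice without BMT, labelled 7 weeks old. The BM only library (labelled as free of graft-versus-host disease, GVHD) came from recipients of the F1 cross (C57BL/6 x BALB/c) that were lethally irradiated and given T cell-depleted C57BL/6 marrow, and was labelled 16 weeks old and 9 weeks after BMT. The BM + Spl library (labelled GVHD) came from like recipients, also labelled 16 weeks old and 9 weeks after BMT, whose graft held C57BL/6 splenic cells along with the marrow. Irradiation and the F1 background of the recipients are shared by both BMT libraries and absent from C57BL/6. The F1 background is that of the host, whereas the grafted cells came from C57BL/6 mice. The paper reports nearly all iNKT cells of recipients with GVHD to be of donor origin. The origin of the cells in these libraries was not tested. With 1 library per group no replicate test exists, so every interval given is an exact 95% interval of counting error alone and differences between libraries have no replicate check.

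AP-1 is a family of transcription factors formed when a FOS protein pairs with a JUN protein, or JUN proteins with each other, through leucine zippers. Most of these genes are immediate-early genes: MAP kinase signals switch them on within minutes without new protein synthesis, and short-lived mRNAs, phosphatases and mRNA-decay proteins switch them off again. T cells induce them on antigen receptor stimulation, and in many tissues mechanical or enzymatic dissociation of live cells induces them as well, together with the inducible HSP70 genes that heat shock factor drives. The levels below therefore hold whatever was induced in the thymus and during preparation of the cells, which cannot be told apart here.

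Reference promoters are shown for the genes with a cAMP response element core or paired heat shock half-sites close upstream (RefSeq, build GRCm38.p6, written 5′ to 3′ on the coding strand, each ending at the base before the annotated start). Capitals mark a cAMP response element core, TGACGT, in Fos (chr12:85473740-85473889, plus strand), and paired heat shock half-sites, GAANNTTC, in Jun (chr4:95052223-95052372, minus strand), Hspa1a (chr17:34972157-34972306, minus strand) and Hspa1b (chr17:34959239-34959388, minus strand).

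Fos: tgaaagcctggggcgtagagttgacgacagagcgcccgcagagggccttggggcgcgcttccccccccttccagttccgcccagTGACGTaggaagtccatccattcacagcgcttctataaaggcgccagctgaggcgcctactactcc
Jun: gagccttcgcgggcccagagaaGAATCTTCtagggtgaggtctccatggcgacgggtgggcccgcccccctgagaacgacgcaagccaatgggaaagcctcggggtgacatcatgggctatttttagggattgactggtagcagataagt
Hspa1a: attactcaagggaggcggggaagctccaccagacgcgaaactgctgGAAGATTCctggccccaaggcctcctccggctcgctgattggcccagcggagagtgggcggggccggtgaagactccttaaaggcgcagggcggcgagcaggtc
Hspa1b: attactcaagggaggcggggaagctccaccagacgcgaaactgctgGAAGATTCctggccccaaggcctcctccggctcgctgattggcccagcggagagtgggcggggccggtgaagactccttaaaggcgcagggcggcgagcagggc

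Dusp1 has a full palindromic cAMP response element, in capitals in the 30 reference bases at chr17:26508597-26508626 (minus strand), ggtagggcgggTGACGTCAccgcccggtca. Among the 250 bases upstream of 32851 RefSeq starts, on both strands, TGACGT was found in 6.47%, the full TGACGTCA in 1.55% and GAANNTTC in 6.69%. Of the 9 members in that set (Ier2 was not among them), TGACGT was found in Fos and Dusp1 and GAANNTTC in Jun, Hspa1a and Hspa1b. The other arrangement of paired heat shock half-sites, TTCNNGAA, found in 7.17% of promoters, was found in 0 members. The consensus AP-1 site TGANTCA, found in 6.75% of promoters, was found in 0 members, and the CArG box that serum response factor binds, found in 1.47%, was found in Zfp36. It is in capitals in the 30 reference bases at chr7:28379267-28379296 (minus strand), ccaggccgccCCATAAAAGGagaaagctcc. These matches describe letters in a window and were not tested as binding sites.

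On build GRCm38 (GENCODE vM21), Fos spans chr12:85473890-85477273, Fosb chr7:19302696-19310051, Jun chr4:95049034-95052222, Junb chr8:84974484-84978718 and Jund chr8:70698949-70700616. Dusp1 spans chr17:26505590-26562128, Ier2 chr8:84661331-84662852 and Zfp36 chr7:28376784-28380253. Jun and Jund have 1 exon each. Genes annotated on the opposite strand overlap Jun (Junos), Junb (Prdx2), Jund (Gm11175), Dusp1 (Gm8225 and Ergic1), Hspa1a (Gm20481) and Zfp36 (Gm44710), and reads from such genes can be told apart only where counting used strand. Dusp1 also overlaps AC122252.4 and AC122252.1 on its own strand, where strand does not separate the reads, so its count is uncertain. Hspa1b (chr17:34956436-34959238) and Hspa1a (chr17:34969190-34972156) lie 9951 bases apart and encode the inducible HSP70 protein. Their 300-base promoter windows are identical at 296 bases and differ by C44T, T47C, T249G and C276T (Hspa1a base, position from 1 at the 5′ end of the window, Hspa1b base). Of the 91-base windows of the Hspa1a transcript, 49.1% also occur in Hspa1b, although 0 of the 410 windows in its last 500 bases do, so reads from the windows in common could not be split between the genes and each gene's own count is uncertain.

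Cells with more than 200 and fewer than 6000 genes, of whose UMIs less than 10% were mitochondrial, were kept: 4434 C57BL/6, 5970 BM only and 5557 BM + Spl cells, with a median of 12086, 4740 and 6495 UMIs per cell, respectively. The median mitochondrial share was 6.48% in C57BL/6 cells, 0.687% in BM only and 0.511% in BM + Spl. BM only and BM + Spl had 43 cell barcodes in common, and C57BL/6 shared 0 with either. Markers of NKT1, NKT2 and NKT17 cells were present in all 3 libraries. Cells carrying markers of regulatory T cells, plasmacytoid dendritic cells (pDCs), B cells or CD8 T cells, which the sort would be presumed to remove, made up few C57BL/6 cells (2, 1, 1 and 1 cells) but 606, 165, 80 and 157 BM only and 660, 407, 61 and 342 BM + Spl cells.

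All 10 genes were lowest in C57BL/6 and highest in BM only, with BM + Spl between. Levels are given as CPM (counts of a gene's UMIs, summed over all kept cells of a library and scaled to a common total of UMIs on the shared genes). Summed over the 10 genes the level was 853 CPM in C57BL/6, 8367 CPM in BM only and 4688 CPM in BM + Spl. In a bulk sum of this kind, fewer cells of a type and less RNA per cell cannot be told apart, so values within cell classes follow.

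**Figure D1:**
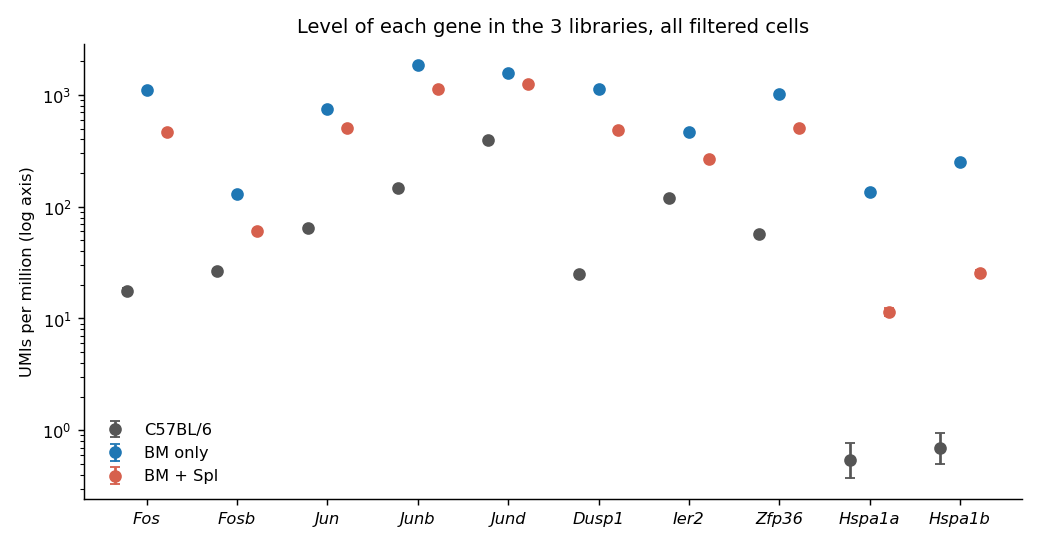
Level of each of the 10 genes in each library (CPM on a log axis; bars are exact 95% Poisson intervals of counting error, 1 library per group). Every gene is lowest in C57BL/6 and highest in BM only, with the widest spread for Hspa1a (0.544, 136 and 11.5 CPM) and Hspa1b.

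Fos, whose protein is the classical inducible partner of JUN, was at 17.6 CPM in C57BL/6 (interval 16.5 to 18.7), 1095 CPM in BM only (1084 to 1106) and 461 CPM in BM + Spl (455 to 467). Its paralog Fosb was at 26.4, 129 and 60.9 CPM. None of the 3 intervals overlapped for either gene, and both genes were at less in BM + Spl than in BM only by a similar factor, 2.38-fold for Fos and 2.11-fold for Fosb.

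Jun, a DNA-binding AP-1 subunit that activates its own promoter, was at 64.4 CPM in C57BL/6, 749 CPM in BM only and 508 CPM in BM + Spl. Junb, which can limit JUN activity and is induced in activated T cells, was at 148, 1849 and 1125 CPM. Jund, the JUN family member that resting cells already express, was at 393, 1565 and 1246 CPM. The JUN genes differed less between the BMT libraries than the FOS genes did, with BM + Spl lower by 1.47-fold for Jun, 1.64-fold for Junb and 1.26-fold for Jund.

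Dusp1 encodes a nuclear phosphatase that inactivates MAP kinases, and its level was 25.0 CPM in C57BL/6, 1120.1 CPM in BM only and 480.1 CPM in BM + Spl. Ier2, an immediate-early gene of a nuclear protein, was at 120.3, 465 and 268 CPM. Zfp36 encodes tristetraprolin, which binds AU-rich mRNAs, Fos among them, and speeds their decay; its level was 57 CPM in C57BL/6 and 1011 and 501 CPM in the BMT libraries. All 3 genes kept the order of the AP-1 genes. The fold between BM only and BM + Spl was 2.33 for Dusp1, 1.73 for Ier2 and 2.02 for Zfp36.

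Hspa1a was nearly absent from C57BL/6 (32 UMIs, 0.544 CPM, interval 0.372 to 0.768) and was at 136 CPM in BM only and 11.5 CPM in BM + Spl. Hspa1b followed with 41 UMIs (0.697 CPM) in C57BL/6, 249 CPM in BM only and 25.4 CPM in BM + Spl. BM + Spl was 11.8-fold (10.8 to 13.0) lower than BM only for Hspa1a and 9.81-fold (9.21 to 10.5) lower for Hspa1b. Summing the pair gave 1.24, 385 and 36.8 CPM. That sum does not depend on how reads were split between the genes, but it lacks any read left uncounted because it matched both.

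BM + Spl and BM only differ by design in the splenic cells of the graft. Each is also 1 library of its own, so the graft cannot be told apart from the preparation of each library. A gene was called higher or lower when its CPM differed by more than 1.5-fold, among 12802 genes with at least 50 UMIs over both libraries, a minimum that all 10 genes passed. Of the 10 genes, 8 were called lower in BM + Spl, beside 8.28 percent of all genes tested, and 0 were called higher, beside 6.83 percent. Under 1 alternative, added after the data were seen, in which the classes of BM + Spl were weighted to their shares in BM only, Junb (log2 ratio -0.25) and Ier2 (-0.47) were lower by less than 1.5-fold, and Junb also was by the mean of the cells' own CPM (-0.55). Jun and Jund were also lower, with log2 ratios of -0.56 (-0.58 to -0.53) and -0.33 (-0.35 to -0.31), but by less than 1.5-fold over all cells. Within most cell classes Jun was lower by more than 1.5-fold, as given below. The median log2 ratio of the 10 genes was -1.05, and that of all genes was 0.0040. Counted from the lowest ratio among all genes tested, Hspa1a ranked 42 and Hspa1b 51, Fos and Dusp1 ranked 302 and 313, and Jund ranked 2050.

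Cell makeup differed between these libraries beside the all-cell ratios. NKT1-like cells, which had high levels of the 10 genes, made up 42.4% of BM only and 12.7% of BM + Spl cells, whereas NKT2-like cells made up 16.7% and 30.2%. The pDC-like cells, which had the highest Jun level, made up 2.76% and 7.32%. With the classes weighted in that way the median log2 ratio was -0.74. The genes were therefore compared within classes that were gated on marker genes, named X-like, and large enough in both libraries.

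In NKT1-like cells (2530 BM only and 703 BM + Spl cells) 5 of the 10 genes were called lower in BM + Spl, beside 10.2 percent of genes, and 0 higher, beside 11.7 percent. Fos was at 948 CPM in BM + Spl and 1428 CPM in BM only, a log2 ratio of -0.59. Dusp1 differed more, with a log2 ratio of -0.88, and so did Zfp36 at -0.92, while Jund was close to level at -0.06 (-0.10 to -0.03). The heat shock genes had the lowest ratios, with Hspa1a at 29.5 against 184 CPM and Hspa1b at 64.4 against 365 CPM.

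NKT2-like cells (994 BM only and 1676 BM + Spl cells) also had 5 of 10 genes called lower, beside 2.85 percent of genes, and 0 higher, beside 2.21 percent. In this class the FOS genes and Jun differed from the JUN genes Junb and Jund. Fos was at 198 CPM in BM + Spl and 406 CPM in BM only (log2 ratio -1.03), and Fosb had a log2 ratio of -1.09. Jun was also called lower, at 230 CPM in BM + Spl and 363 CPM in BM only. Junb was at 828 and 805 CPM, a log2 ratio of 0.04 whose interval spans 0, and Jund was at 878 and 929 CPM. That near level of Junb and Jund depended on the gate: in unsupervised clusters led by NKT2 markers, which held 983 BM + Spl and 1047 BM only cells, their log2 ratios were -0.66 and -0.44. Hspa1a was at 7.69 CPM in BM + Spl and 107 CPM in BM only.

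NKT17-like cells (406 BM only and 168 BM + Spl cells) had 8 of 10 genes called lower, beside 8.8 percent of genes, with Fos at 1179 CPM in BM + Spl and 2566 CPM in BM only. Cycling cells had 7 of 10 called lower (4.1 percent of genes) and cells high in interferon-induced genes 9 of 10 (6.66 percent). The interferon class held the lowest ratios outside the heat shock pair, with log2 ratios of -1.57 for Fos, -1.87 for Fosb and -1.45 for Zfp36. There Fos was at 312 CPM in BM + Spl and 929 CPM in BM only.

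Classes gated on markers of other cell types showed the same sign for most of the genes. Regulatory T cell-like cells had 7 of 10 called lower (6.78 percent of genes), with log2 ratios of -1.11 for Fos and -3.50 for Hspa1b. In pDC-like cells 5 of 10 were called lower (6.78 percent of genes), with Fos at 983 CPM in BM + Spl against 1704 CPM in BM only and Hspa1b at 7.57 against 128 CPM. Jund was higher in BM + Spl in that class, at 2232 against 1979 CPM, a log2 ratio of 0.17 (0.10 to 0.24). Cells gated on Cd8a and Cd8b1, a class resting on only 2 markers and so left unnamed, had 7 of 10 called lower (8.18 percent). B cell-like cells, 80 in BM only and 61 in BM + Spl, had 6 of the 9 genes tested called lower (8.67 percent). Between 2.21 and 11.7 percent of genes were called higher in these 9 classes (7.59 percent in B cell-like, 6.56 in pDC-like, 3.97 in Cd8a/Cd8b1, 3.28 in regulatory T cell-like, 2.3 in cycling, 6.91 in interferon-like and 8.19 in NKT17-like cells), beside 0 of the genes described here. Both heat shock genes, Hspa1a and Hspa1b, had log2 ratios of -3.83 to -2.63 for Hspa1a in the 8 classes where it was tested and -4.08 to -1.69 for Hspa1b in all 9. In B cell-like cells Hspa1a had too few UMIs to be tested (5 in BM + Spl and 23 in BM only). Jun was called lower in these 9 classes except NKT1-like and pDC-like cells. There Jun was at 591 and 2508 CPM in BM + Spl, against 770 and 3566 CPM in BM only.

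**Figure D2:**
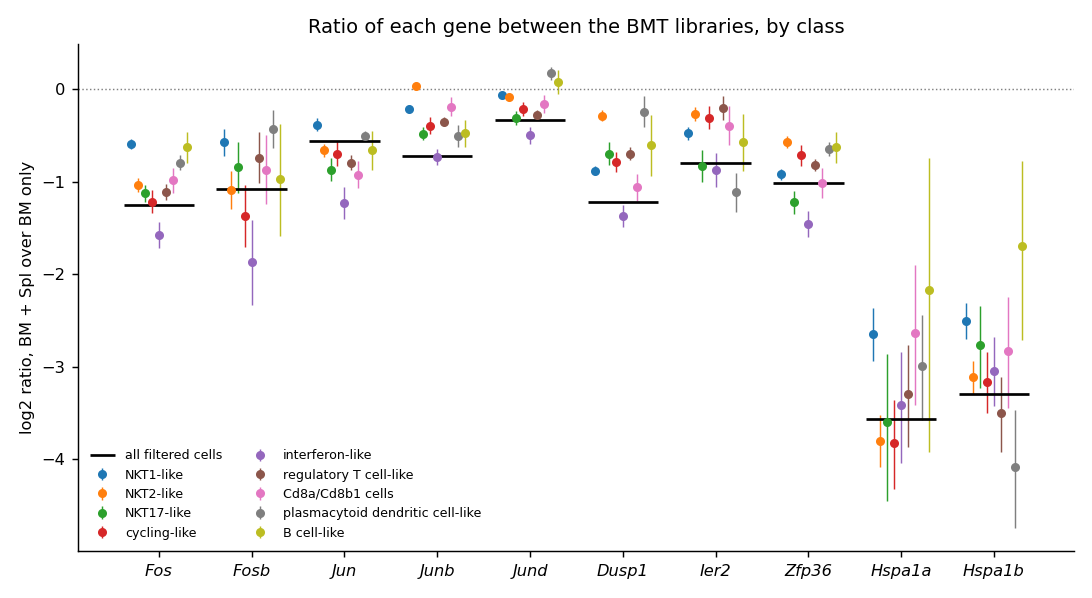
Log2 ratio of BM + Spl over BM only for each gene, 1 point per cell class with its 95% counting interval and a black bar for all cells (vertical axis in log2 units; 0 is no difference). Hspa1a and Hspa1b lie lowest, Fos lies between -1.57 and -0.59, and the points of Jund lie around 0, from -0.49 in interferon-like to 0.17 in pDC-like cells.

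BM only and C57BL/6 differ in transplantation, irradiation, age and the strain of the mice whose thymi were taken. They also differ in how the count tables were made: the matrix headers name Cell Ranger 7.0.0 for both BMT libraries and 3.0.2 for C57BL/6. These differences cannot be told apart, and the BMT libraries share them. The library kit may differ as well, since the labels do not say which kit each library used. C57BL/6 had 0 cell barcodes in common with either BMT library, whereas the BMT libraries had 43 in common. Whether the kit differed was not tested, so the folds below may also be ratios across kits. The median log2 ratio of all 12596 genes tested was 0.21, and the ratios of the 10 genes are to be read against that shift. All 10 genes were called higher in BM only, beside 33.7 percent of genes, with a median log2 ratio of 3.90. Fos was higher 62.3-fold, Dusp1 44.9-fold, Zfp36 17.8-fold, Junb 12.5-fold and Jun 11.6-fold. The smaller ratios were those of Fosb (4.86-fold), Jund (3.98-fold) and Ier2 (3.86-fold). Hspa1b was 357-fold (263 to 498) and Hspa1a 249-fold (176 to 365) higher.

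Within NKT1-like cells 10 of 10 genes were called higher in BM only than in C57BL/6, beside 26.1 percent of genes, with log2 ratios of 4.73 for Fos, 4.63 for Dusp1, 2.98 for Junb and 0.99 for Fosb. Within NKT2-like cells it was again 10 of 10, beside 24.5 percent, with log2 ratios of 4.94 for Fos, 4.56 for Dusp1, 2.73 for Junb and 1.56 for Fosb. Both classes thus kept the large ratios of Fos and Dusp1 and the small ratio of Fosb. In C57BL/6 NKT17-like cells Hspa1a had 0 UMIs, and no fold is given.

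**Figure D3:**
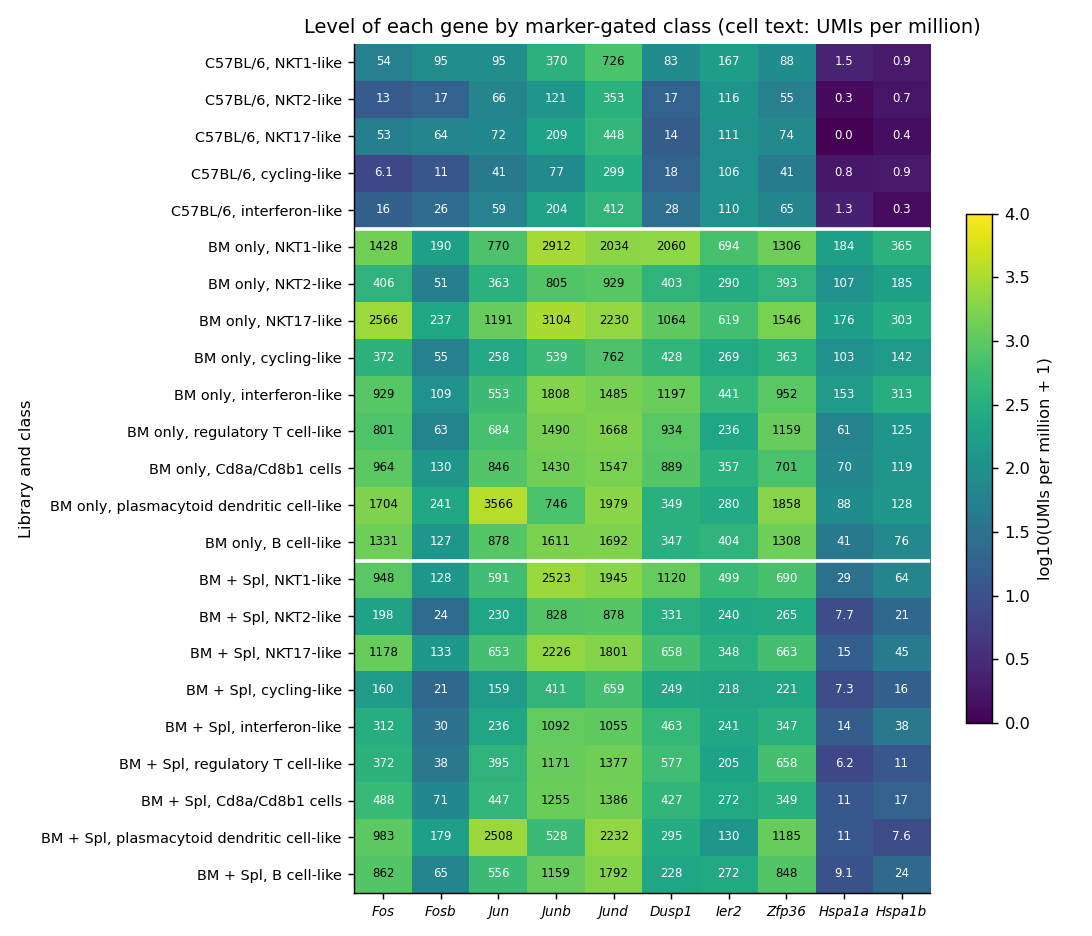
Level of each gene in each cell class of each library (numbers are CPM; colour is log10 of CPM plus 1). Purple is low and yellow high. Within a library most genes are higher in the NKT1-like and NKT17-like than in the NKT2-like and cycling rows of the grid, and Jun stands out in pDC-like cells (3566 CPM in BM only and 2508 CPM in BM + Spl).

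Among marker-gated classes of the same library, which share kit, processing and preparation, NKT1-like cells were above NKT2-like cells. The gates read no antigen receptor gene, so whether the cells of these classes were iNKT cells was not tested. Of the 8 genes with enough UMIs in C57BL/6, 6 were called higher in NKT1-like cells, beside 15.5 percent of genes, and the counts were 10 of 10 in BM only (17.2 percent) and 10 of 10 in BM + Spl (18.9 percent). For Fos the NKT1-like level was 53.7 CPM and the NKT2-like level 13.2 CPM in C57BL/6, beside 1428 and 406 CPM in BM only and 948 and 198 CPM in BM + Spl. The log2 ratio of Fos was similar in the 3 libraries, at 2.02, 1.82 and 2.26, and so were those of Jund at 1.04, 1.13 and 1.15. Jun and Ier2 had lower ratios in C57BL/6, both at 0.52, than in BM only, at 1.08 and 1.26, or BM + Spl, at 1.36 and 1.05. NKT1-like cells held fewer UMIs than NKT2-like cells (medians of 4318 and 7797 in BM only and 6224 and 13555 in C57BL/6), and the part of depth in these ratios was not tested as a cause.

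NKT17-like cells were above NKT2-like cells for Fos, with a log2 ratio of 2.66 in BM only and 2.57 in BM + Spl, and with 52.9 against 13.2 CPM in C57BL/6. Their Dusp1 level was below that of NKT1-like cells in each library, at 14.3 against 83.3 CPM in C57BL/6, 1064 against 2060 CPM in BM only and 658 against 1120 CPM in BM + Spl. NKT17-like cells had 3 of 8 genes called higher than in NKT2-like cells in C57BL/6 (12.7 percent of genes), 10 of 10 in BM only (14.8 percent) and 9 of 10 in BM + Spl (19.1 percent). Cycling cells had the lowest Junb and Jund in each library; for Junb the levels were 77.1, 539 and 411 CPM.

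In the BMT libraries, pDC-like cells differed from NKT1-like and NKT2-like cells of the same library in the balance of the subunits. Jun was at 3566 CPM in BM only pDC-like cells, against 1191 CPM in NKT17-like cells, the next highest class, and at 2508 against 653 CPM in BM + Spl. Junb was at 746 CPM in BM only pDC-like cells, against 2912 CPM in NKT1-like, 805 CPM in NKT2-like and 539 CPM in cycling cells. In BM only it was thus below the first and near or above the others. In BM + Spl pDC-like cells Junb was at 528 CPM, below NKT1-like (2523 CPM) and NKT2-like cells (828 CPM) and above cycling cells (411 CPM). The ratio of Fos to Jun UMIs was 0.478 (0.452 to 0.505) in BM only and 0.392 (0.377 to 0.408) in BM + Spl pDC-like cells, against 1.85 and 1.61 in NKT1-like and 1.12 and 0.860 in NKT2-like cells. Likewise the ratio of Junb to Jund UMIs was 0.377 and 0.237 in pDC-like, 1.43 and 1.30 in NKT1-like and 0.867 and 0.942 in NKT2-like cells. Low ratios were also found in C57BL/6, but its counts came from another Cell Ranger version and perhaps another kit. Its ratios may therefore not be comparable with those of the BMT libraries. In C57BL/6, Fos to Jun was 0.564 in NKT1-like and 0.200 in NKT2-like cells, and Junb to Jund was 0.510 and 0.343. Relative to NKT2-like cells, 5 of 10 genes were called higher in pDC-like cells of BM only (23.2 percent of genes) and 5 of 10 in BM + Spl (23.9 percent), with 0 and 3 called lower (25.7 and 23.4 percent). The Dusp1 level of pDC-like cells was at 349 CPM in BM only, close to the 347 CPM of B cell-like cells, the lowest class.

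Regulatory T cell-like cells had low heat shock gene levels for the BM only library, with Hspa1a at 60.7 CPM against 107 CPM in NKT2-like cells. This was not particular to them, since Hspa1a was at 40.7 CPM in B cell-like, 69.5 CPM in Cd8a/Cd8b1 and 88.1 CPM in pDC-like cells of BM only. Zfp36 was higher in regulatory T cell-like than in NKT2-like cells, at 1159 against 393 CPM. Relative to NKT2-like cells, 6 of 10 genes were called higher in regulatory T cell-like cells (22.1 percent of genes) and 1 lower (12.2 percent).

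Shares of cells with at least 1 UMI were compared after each cell was thinned to 2700 UMIs, which left out 15 C57BL/6, 959 BM only and 568 BM + Spl cells. Fos was detected in 5.93% of C57BL/6 cells, in 73.0% of those of BM only and in 50.3% of those of BM + Spl (15.4%, 83.2% and 66.9% before thinning). Jund, detected most widely, was found in 64.4%, 94.9% and 90.9% of thinned cells. Hspa1a or Hspa1b was detected in 0.317% (0.173 to 0.531) of C57BL/6 cells, compared with 37.9% (36.6 to 39.3) for BM only and 7.00% (6.30 to 7.74) for BM + Spl (1.11%, 45.0% and 11.6% before thinning). Free RNA can give such UMIs to any droplet, and no class here is known to lack these genes, so its share was not measured. The heat shock pair was found in different shares of the classes of BM only, from 46.4% of NKT1-like and 33.2% of NKT2-like to 16.6% of pDC-like cells. In BM + Spl the same classes held 13.6%, 6.11% and 1.79%.

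Over all cells the median of the summed UMIs of the 10 genes per thinned cell was 2 in C57BL/6, 22 in BM only and 11 in BM + Spl. The distributions overlapped between the BMT libraries, since 23.0% of BM + Spl cells lay above the BM only median. The largest sum in any C57BL/6 cell, 21 UMIs, was exceeded by 51.8% of BM only and 24.2% of BM + Spl cells. In NKT1-like cells the medians were 4, 31 and 21 UMIs, and in NKT2-like cells 2, 9 and 7.

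**Figure D4:**
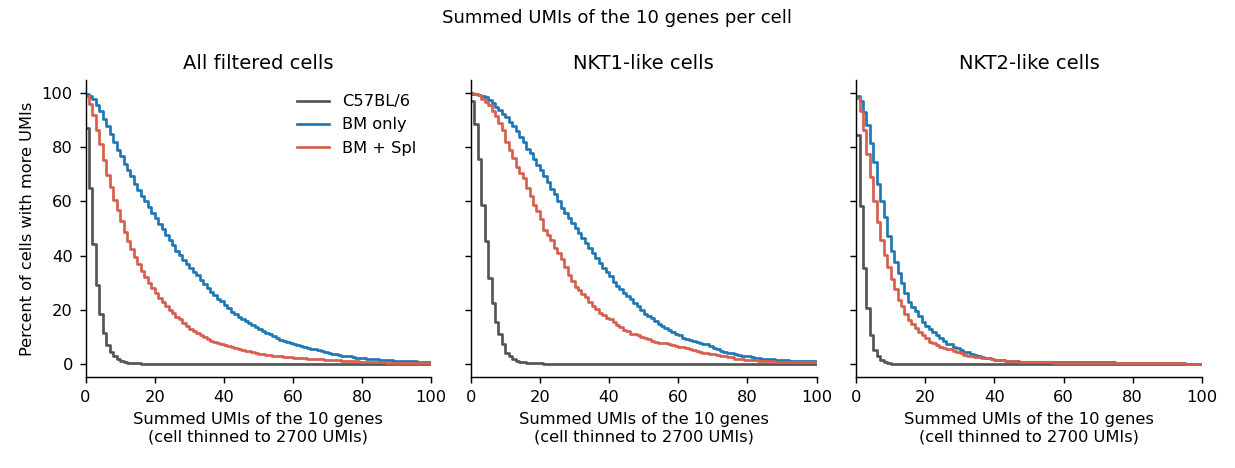
Percent of cells (vertical axis) with more than a given number of summed UMIs of the 10 genes (horizontal axis), after thinning each cell to 2700 UMIs, for all, NKT1-like and NKT2-like cells of each library. The C57BL/6 curve falls first, the BM + Spl curve next and the BM only curve last, with medians over all cells of 2, 11 and 22 UMIs.

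Over all cells of each BMT library, those with more UMIs of the heat shock pair held more UMIs of the other 8 genes on average. In BM only, 62.1% of thinned cells had 0 UMIs of Hspa1a and Hspa1b, 22.1% had 1 or 2 and 15.9% had at least 3. The mean summed UMIs of the other 8 genes in these cells were 23.0, 26.7 and 35.8. In BM + Spl cells split in the same way the means were 15.3, 21.2 and 31.8. In BM only NKT1-like cells the means were 29.3, 32.8 and 40.1, and in BM only NKT2-like cells 10.1, 11.7 and 15.6. In BM only regulatory T cell-like cells they were 22.1, 26.5 and 23.7 and did not rise throughout, with only 31 cells behind the last value.

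Fos was detected in 80.8% of BM only cells with Jun and in 59.4% of those without it, and in BM + Spl in 63.7% and 37.9%. Across thinned cells of BM only, log2(UMIs + 1) of the 8 genes other than the heat shock pair was correlated pairwise with a median Pearson's r of 0.33 (28 pairs, 0.15 to 0.55), and of 0.31 in BM + Spl. The pairs share library, depth and classes, so these values are descriptions. Pairs of a heat shock gene with another gene had lower medians, 0.12 and 0.07, and Hspa1a with Hspa1b gave 0.35 and 0.27.

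Within a library the summed level also moved with the depth of the cell. In BM only NKT2-like cells split into 3 bins by UMIs, the 10 genes were at 6060 CPM in the shallowest, 4384 CPM in the middle and 3046 CPM in the deepest bin, and in BM + Spl NKT2-like cells at 5140.3, 3012 and 2298 CPM. The heat shock pair was at 286, 301 and 288 CPM in these bins of BM only NKT2-like cells, at 586, 666 and 458 CPM in BM only NKT1-like cells and at 52.5, 23.1 and 24.6 CPM in BM + Spl NKT2-like cells. BM + Spl cells held more UMIs than BM only cells. When cells were thinned to the same depth the median log2 ratio between these libraries was -0.96. Thinning keeps, on average, the share of the genes in each cell, so that value cannot show what part of the ratio goes with depth.

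Over 26 points, each a class of at least 50 cells in a library (mixed NKT1/NKT2 cells included), the gene whose log2 level followed the sum of the 10 genes most closely of 9903 compared was Ppp1r15a (Pearson's r 0.97), which encodes a stress-induced subunit of protein phosphatase 1. Gm42418, which overlaps ribosomal RNA, Klf6, an immediate-early zinc finger factor, and Rhob, an inducible small GTPase, followed with r of 0.97, 0.97 and 0.96. The 10 genes themselves were left out of this search. Among the rest Dnajb1, an HSP40 co-chaperone induced by heat shock, was closest to Hspa1a (0.95) and Hspa1b (0.95). Likewise Dnajb9, a chaperone of the endoplasmic reticulum, was closest to Jun (0.96). Hspa1a with Hspa1b gave 0.97 over the same points. Over the BM + Spl classes alone r was 0.03 for Hspa1b with Dnajb1. Gm11175 was closest to Zfp36 (0.97) and overlaps Jund on the opposite strand. These points share libraries, and the C57BL/6 points are low for all these genes, so the correlations describe this set of points only.

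Related genes were read from 5 lists, whose counts stand beside 8.28 percent of all genes called lower and 6.83 percent called higher. Of 26 other immediate-early and MAP kinase feedback genes tested, 9 were called lower and 1 higher in BM + Spl than in BM only, with a median log2 ratio of -0.40. Rhob and Ppp1r15a were lowest, at -1.28 and -0.97, and the MAP kinase phosphatases Dusp4 and Dusp10 highest, at 0.83 and 0.49. Of 10 other AP-1 family genes 4 were called lower and 0 higher (median -0.51), led by Atf3, a stress-induced repressor, at 36.2 against 72.3 CPM and Fosl1 at a log2 ratio of -0.94, with Batf2 and Batf highest at 0.37 and 0.30. Of the relatives of Zfp36, Zfp36l2 was at -0.78 and called lower, whereas Zfp36l1 was level at 0.0024.

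The heat shock and chaperone list did not move with Hspa1a and Hspa1b as a whole. Of its 17 genes 1 was called lower and 0 higher (8.28 and 6.83 percent of all genes), with a median of 0.03. The gene called lower was Dnajb1, at 107 CPM in BM + Spl and 231 CPM in BM only, and the next lowest was Dnajb4 at -0.58. Hspe1, the mitochondrial co-chaperonin, and Stip1, which links HSP70 to HSP90, were highest at 0.42 and 0.35. Of 13 upstream kinases, serum response factor partners and heat shock factors, 0 were called lower or higher, and their median was -0.04. Mapk14 (p38) and Creb1 were lowest at -0.27 and -0.21, and Elk1 and Map2k1 highest at 0.22 and 0.14.

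**Figure D5:**
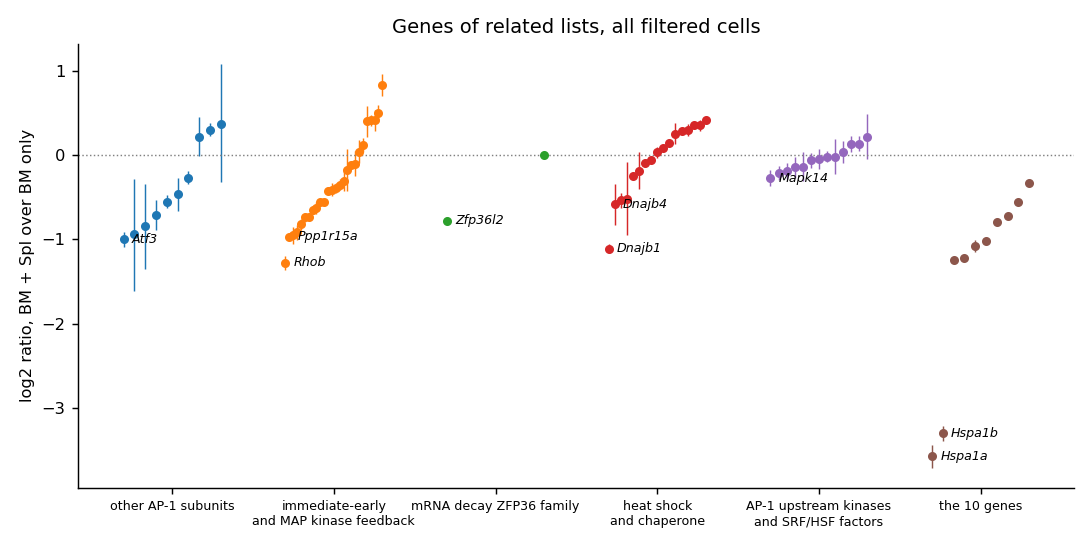
Log2 ratio of BM + Spl over BM only in all cells for the 10 genes and for each gene of 5 related lists (1 point per gene with its 95% counting interval; vertical axis in log2 units). The 10 genes lie from -3.57 to -0.33, whereas the chaperone list centres on 0.03 and the upstream kinases and factors on -0.04.

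Between BM only and C57BL/6 the same lists were higher in part. Of 26 immediate-early genes 19 were called higher and 1 lower in BM only (33.7 and 15.6 percent of all genes), with a median log2 ratio of 2.34; the nuclear receptor Nr4a2 was highest at 4.87, followed by Tnfaip3, an inhibitor of NF-κB signalling, at 4.42. Egr3, a factor induced by antigen receptor signals, was lowest at -2.32, and Egr2 was at -0.30. Of 9 other AP-1 genes 6 were called higher and 1 lower (median 1.14), with Jdp2 at 4.11 and Maf, the gene called lower, at -1.39. Atf3, at 0.0340 CPM in C57BL/6, had the highest log2 ratio of that list, 11.05 with an interval of 9.20 to 14.10. Of 17 chaperone genes 4 were called higher and 1 lower (median 0.03), with Bag3, an HSP70 nucleotide exchange factor, at 3.38, Hspb1 at 3.12, Hsp90aa1 at -0.49 and Hspa4l at -0.83. Both relatives of Zfp36 were called higher, Zfp36l1 at 1.15 and Zfp36l2 at 0.98. Of the 13 upstream genes 5 were called higher and 0 lower (median 0.29), with Map2k1 at 1.31, Hsf1 at 0.88, Mapk8 at -0.45 and Elk4 at -0.53.

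Within NKT2-like cells the same lists gave 0 genes called higher in BM + Spl than in BM only (2.21 percent of all genes). Called lower, beside 2.85 percent of all genes, were 1 of 26 immediate-early genes, 1 of 16 chaperone genes and 0 of the 6 other AP-1 genes tested. Within NKT1-like cells they went both ways, with 8 of 26 immediate-early genes called higher and 4 lower, beside 11.7 and 10.2 percent of all genes.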

How the data were processed

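Single-cell UMI counts per gene were deposited as 1 matrix per library, made by the authors with Cell Ranger on mm10. The matrix headers name version 3.0.2 for C57BL/6 and 7.0.0 for BM only and BM + Spl. The submitters' processing notes also name Seurat 4.0.2. Newer Cell Ranger versions count intronic reads by default, and 3′ and 5′ kits are both named without saying which library used which. Total kept depth on the shared genes was 58794317, 34799890 and 43122441 UMIs (C57BL/6, BM only, BM + Spl). Intervals were exact (Poisson for CPM, Clopper-Pearson for shares, conditional binomial for ratios).

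Cells were gated into classes by UMIs of fixed marker lists (at least 2 to 4 distinct markers of a list, and for NKT1-like or NKT2-like cells a 2-fold lead of one list). The scoring rule was set after the data were seen. Classes of at least 50 cells were compared, doublets were kept, and no comparison of a mixed NKT1/NKT2 class or of unassigned cells is reported. In C57BL/6 0 NKT2 markers were among the 10 genes that led NKT2-like cells. The 10 genes and the related lists were chosen with earlier results of these data known. Related genes named in the text are the 2 highest and 2 lowest ratios per list in each all-cell comparison. Also named are genes most like each member by Pearson's correlation of log2(CPM + 1), with the members left out of the search. Of these, Gm42418, Klf6 and Rhob are from the 10 closest to the sum. A gene was called at 1.5-fold with at least 50 UMIs in the pair compared. Clusters used for an alternative came from leidenalg 0.10.2 and scikit-learn 1.9.0. Analysis used Python 3.11.15 with numpy 2.4.6, scipy 1.17.1 and pandas 2.3.3. Only the ratios and their intervals were tested on simulated data, drawn from the Poisson model that the intervals assume. The gates, thinning and clusters were not tested in this way.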

Additional observations from a re-analysis of the deposited data

Results flagged for a closer look

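The log2 ratio of Jund in BM + Spl over BM only had opposite signs in cell classes of the same libraries. It was 0.17 (0.10 to 0.24) in pDC-like cells and -0.49 (-0.59 to -0.40) in interferon-like cells. The difference between the classes was not tested, since there is 1 library per group, and the intervals cover counting error only.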

How the results depend on the processing

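No paired analysis was possible because each group is 1 library. Of 76 medians under other settings 50 stayed within the counting interval, 77 of 78 counts stayed within 1.5 times, and 2 of 678 values of single genes reversed. For BM + Spl over BM only in all cells, the median log2 ratio was -0.89 by the mean of the cells' own CPM, -0.96 thinned and -0.74 at the BM only class mix (chosen after seeing the data). For BM only over C57BL/6 it was 3.70 with median-of-ratios scaling, 3.64 without mitochondrial and ribosomal protein genes, 4.13 under a 5% mitochondrial limit, 3.98 without the top 5% of cells by UMIs and 3.41 at the class mix. Gating on thinned cells gave, for BM + Spl over BM only, -0.80 in NKT1-like and -0.62 in regulatory T cell-like cells, and a stricter gate -0.70 in NKT1-like cells. Clusters in place of gates gave -1.07 in NKT1-like, -1.12 in NKT2-like, -1.20 in regulatory T cell-like and -1.05 in pDC-like cells. The count of genes called lower moved in the NKT2-like clusters, but no share of all genes was computed between clusters. These clusters held other cells than the gates: clusters led by NKT1 markers held 267 BM + Spl cells (703 gated) and 2646 BM only cells (2530 gated), and those led by NKT17 markers 1194 BM + Spl cells (168 gated). For BM only over C57BL/6 a 5% mitochondrial limit gave 2.93 in NKT1-like and 3.13 in NKT2-like cells. That limit kept 124 of 795 NKT1-like and 175 of 2133 NKT2-like cells of C57BL/6. In BM only it kept 2529 of 2530 and 978 of 994. For BM only over C57BL/6, median-of-ratios scaling gave 2.66 and the thinned gate 2.87 in NKT2-like cells, and clusters 4.33 in NKT17-like cells. For NKT1-like over NKT2-like cells the thinned gate gave 1.25, 1.40 and 1.43 (C57BL/6, BM only, BM + Spl), the 5% limit 1.49 in C57BL/6, and clusters 1.31 in BM only and 1.41 in BM + Spl. Hspa1a in NKT1-like over NKT2-like cells reversed to -0.29 in C57BL/6 under the 5% limit and to -0.11 in BM + Spl with clusters. The cause was not tested. Over 9 alternatives the all-cell log2 ratio of BM + Spl over BM only ran from -1.27 to -0.81 for Fos, -0.75 to -0.25 for Junb, -0.84 to -0.47 for Ier2, -0.36 to -0.11 for Jund and -3.57 to -3.06 for Hspa1a. Low counts limit Hspa1a and Hspa1b in C57BL/6, and no depth stands in for the missing replicate libraries.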

Other observations

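When the cells of BM + Spl were clustered without the gates, 1 cluster of 75 cells was led by no marker list, with a median of 3060 UMIs and 0.357% mitochondrial UMIs. The 10 genes summed to 22760 CPM in it, with Hspa1a and Hspa1b at 76.4 CPM. It was singled out after its values were seen.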
